A study of Mus musculus with 9 samples.

Results

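All cells that carried the c-fos label were set against cells that did not. The set was chosen by label alone: 6 of the 9 libraries of the series carry it, 3 titled c-fos and 3 titled overlap, and the 3 libraries titled mCherry (spelled mCHerry in the sample titles and mCherry in the header of the count table) do not. Overlap is read here as both labels in the same cells, because the design text names 2 labelled populations, CRD and His, and a population that carries both, and neither is tied to c-fos or mCherry by any label. The animals are mice, the genotype field of each sample repeats its group name, and no strain, sex, age, treatment or time is given in the sources used here. Per the labels' protocols, cells were cut from PFA-fixed frozen tissue by laser capture and their RNA ends were sequenced with Smart-3SEQ, which reads the 3′ ends of polyadenylated RNA. No label ties a library to an animal. The p-values therefore rest on the spread among the 9 libraries, which may be technical, and would be too small if libraries of a group share an animal.

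Neurons answer strong synaptic input or a rise in calcium by switching on immediate early genes within minutes, without the need for new protein. The first wave codes for transcription factors, among them Fos and its AP-1 partners, the Egr and Nr4a families and Npas4, and later products reshape synapses or damp the signal that induced them. In the amygdala and elsewhere in the brain, c-fos protein is a widely used mark of cells that were recently active. Fos itself is named by the label and is no finding, and the other genes of the program are known to be induced together with it.

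The series title places the tissue in the basolateral amygdala, while the cell type field names spermatocytes. Marker levels were those of brain: Meg3, Snap25 and Rbfox3 were counted in all 9 libraries, and Sycp1, Spo11 and Stra8, which define meiotic germ cells, were at 0 in all of them. Summed CPM (counts scaled to a common library size by the TMM method) of 24 germ cell markers, of which 5 were at 0 in every library, ran from 200 to 445 in the labelled libraries and from 114 to 941 in the mCherry libraries. The highest value was that of mCherry 3, where Tnp1 of late spermatids stood at 815 CPM.

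Library totals were 218519 ± 96455 counts in the 6 labelled libraries and 296052 ± 119387 counts in the 3 mCherry libraries (SD; exact permutation p = 0.333 over 84 splits, smallest possible 0.0238). A floor of 3 counts came to between 6.99 and 33.3 CPM of the total, so low genes are poorly resolved. Libraries mCherry 3 and overlap 1 stood apart from the other 7. Their summed Ins1 and Ins2 transcripts, which pancreatic islets make, reached 8106 CPM of the total count in mCherry 3 and 19647 in overlap 1, against 247 to 990 in the others, and mCherry 3 also had the lowest TMM factor, 0.636, with 1.00 to 1.15 elsewhere. Where a value rests on either library it is given with and without that library.

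The first question was which genes differed between labelled and mCherry cells in the same direction in both labelled groups. With edgeR's quasi-likelihood test and Benjamini-Hochberg adjustment, 0 of 7959 tested genes passed an adjusted p of 0.05 in either direction, and the smallest adjusted p was 0.0886. At an unadjusted p under 0.05 there were 1037 genes (13.0% of those tested), 375 of them higher (4.71%) and 662 lower (8.32%) in labelled cells. All 6 labelled libraries lay above all 3 mCherry libraries for 167 genes (2.10%) and below them for 260 (3.27%), 427 in all (5.36%). Both labelled groups had an unadjusted p under 0.05 in the same direction for 376 genes (4.72%), of which 198 were higher (2.49%) and 178 lower (2.24%). The c-fos and overlap comparisons share the mCherry libraries, so these genes are counted as the rule asks and are no repeat of each other.

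DESeq2 and limma-voom made calls where edgeR made none. DESeq2 called 83 genes, 60 higher and 23 lower, and limma-voom called 38, all lower. Only 5 genes were called by both, which is 13.2% of the limma-voom list and 6.02% of the DESeq2 list: Nptxr, Frrs1l, Cplx2, Enc1 and Ppp6r2, all lower in labelled cells. Several activity genes described next were called by DESeq2 alone. Leaving out mCherry 1 gave 181 edgeR calls (9 higher, 172 lower) and leaving out mCherry 2 gave 161 (3 higher, 158 lower), with mCherry 3 1 of the 2 mCherry libraries that remained each time, and leaving out mCherry 3 gave 0. Genes with an unadjusted p under 0.05 in both labelled groups then numbered 685, 509 and 230. Since none passed in edgeR on all libraries, levels and their order across libraries are given for each gene.

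The AP-1 transcription factors pair as dimers of Fos and Jun family members. Of 9 listed genes 7 were tested, all 7 with positive log2 fold changes and a median of 1.78, where all tested genes had a median of -0.07. The 4 with all labelled libraries above all mCherry libraries were Fos, Jun, Junb and Atf3, where 2.10% of all tested genes had that order. A gene near the filter on low counts can enter the test through the group where it is high, so such counts describe the members that were tested and support nothing further.

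Fos had 332, 265 and 281 CPM in the c-fos libraries and 537, 300 and 215 CPM in the overlap libraries, against 156, 53.8 and 47.5 CPM in the mCherry libraries. The label thus stood in the order the titles give, with every labelled library above every mCherry library (log2 fold change 1.88 ± 0.60 SE, edgeR adjusted p = 0.202; DESeq2 adjusted p = 0.0496). Without mCherry 3 and overlap 1 the log2 fold change of Fos was 1.36. In bulk counts such as these, fewer cells with a transcript and less of it per cell cannot be told apart. Jun, the usual partner of Fos, had 413, 156 and 297 CPM in c-fos and 143, 265 and 74.1 in overlap libraries, against 53.1, 69.5 and 7.91 in mCherry libraries (2.23 ± 0.76, edgeR adjusted p = 0.225). Junb had 186, 209 and 222 CPM in c-fos and 143, 123 and 173 in overlap libraries, against 102, 15.7 and 31.6 in mCherry libraries (1.78 ± 0.72, edgeR adjusted p = 0.301). The gap between its lowest labelled library and mCherry 1 was small. Atf3, a stress- and activity-induced factor of the same superfamily, had 32.4, 40.5 and 46.9 CPM in c-fos and 230, 49.95 and 14.1 in overlap libraries, against 7.59, 0 and 0 in mCherry libraries (4.33 ± 1.46, edgeR adjusted p = 0.222). Those mCherry libraries held 2 counts of Atf3 in all, and the ratio of summed counts per TMM-scaled library size was 20.9 with a 95% counting interval of 5.57 to 176. For Atf3 the log2 fold change was 3.20 without mCherry 3 and overlap 1. Fosb came close to separating, from 69.2 to 259 CPM over the labelled libraries against 17.9 to 111 over the mCherry libraries (1.44 ± 0.75), while Jund, a family member with steady expression, showed 0.61 ± 0.52.

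The zinc finger, nuclear receptor and bHLH factors are the other early transcription factors of the program. Of 19 listed, 8 were tested, 7 with positive fold changes. Every labelled library lay above every mCherry library for 4 (Egr1, Egr4, Nr4a3 and Npas4), where 2.10% of all tested genes had that order. The filter bears on this count too. Egr1, a zinc finger factor read out almost as widely as Fos, had 324, 638 and 512 CPM in c-fos and 154, 250 and 356 in overlap libraries, against 91.1, 78.5 and 87.0 in mCherry libraries. Its log2 fold change was 2.05 ± 0.53 (edgeR adjusted p = 0.145, DESeq2 adjusted p = 0.0161), and its mCherry values lay within a narrow range. Nr4a3, an orphan nuclear receptor, had 203, 305 and 206 CPM in c-fos and 296, 165 and 102 in overlap libraries, against 49.3, 35.9 and 31.6 in mCherry libraries (2.41 ± 0.67, edgeR adjusted p = 0.166; DESeq2 adjusted p = 0.0161).

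Npas4, a factor that neurons induce through calcium entry and that acts on inhibitory synapses, was nearly absent from mCherry cells. It had 154, 74.7 and 184 CPM in c-fos and 373, 65.3 and 145 in overlap libraries, against 19.0, 0 and 0 in mCherry libraries. The log2 fold change was 4.53 ± 1.16, with 4.29 in c-fos and 4.76 in overlap cells (edgeR adjusted p = 0.144, DESeq2 adjusted p = 0.0161). It was 3.73 without mCherry 3 and overlap 1. Egr4 ran from 16.2 to 174 CPM over the labelled libraries, with c-fos 1 and overlap 1, the shallowest libraries, at 16.2 and 21.9, against 6.73 to 15.8 over the mCherry libraries (3.37 ± 1.04, edgeR adjusted p = 0.194). Egr3 had 0.98 ± 0.71 and its libraries overlapped. Nr4a2 was the exception, at -0.70 ± 1.03, with 498 CPM in mCherry 3 against 7.59 and 13.5 in the other 2 mCherry libraries; without mCherry 3 its log2 fold change was 3.17. Nr4a1 and Egr2 were too low to be tested, with at most 46.9 and 76.9 CPM in any library.

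**Figure D1:**
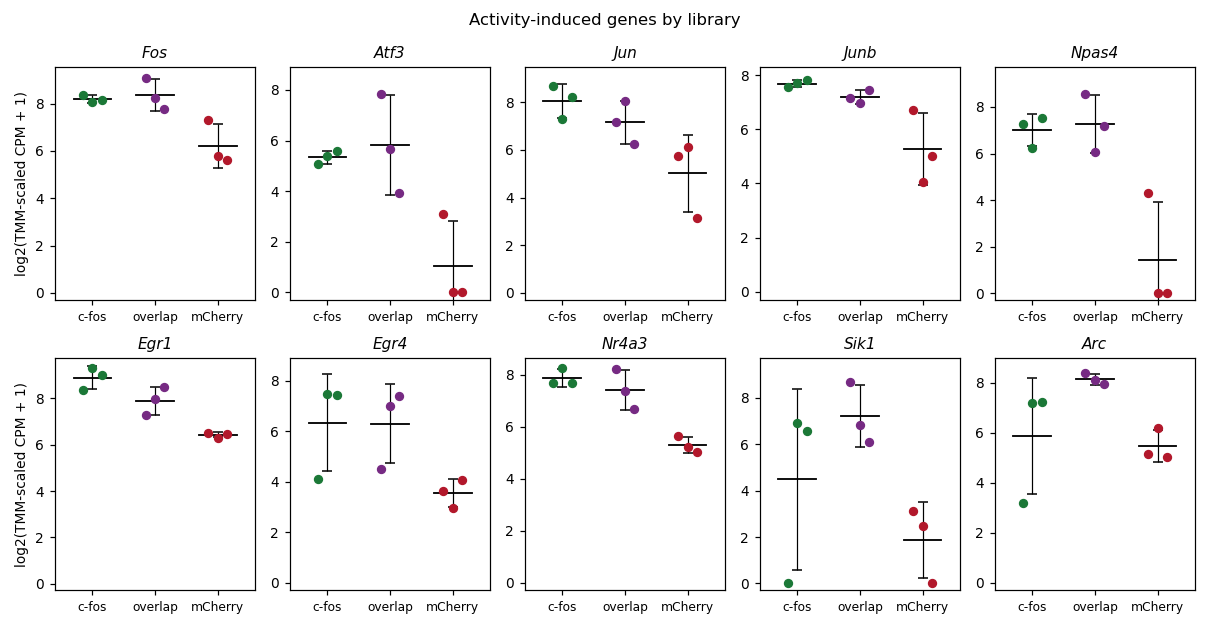
Levels of 10 activity-induced genes by library, as log2(TMM-scaled CPM + 1), in c-fos, overlap and mCherry libraries (points, 3 each; bar, mean; whiskers, SD). Every labelled point of Fos, Atf3, Jun, Junb, Npas4, Egr1, Egr4 and Nr4a3 sits above every mCherry point; Sik1 and Arc are broken by c-fos 1, at 0 and 8.11 CPM.

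Feedback genes, whose products limit the kinases and transcription that activity sets off, were mixed. Of 22 listed, 11 were tested, 7 with positive and 4 with negative fold changes. Every labelled library lay above every mCherry library for 2 of them, and for 2.10% of all tested genes. Spry2, an inhibitor of receptor tyrosine kinase signalling, ran from 24.7 to 186 CPM over the labelled libraries against 0 to 11.2 over the mCherry libraries (3.32 ± 1.24, edgeR adjusted p = 0.260). Dusp1, a phosphatase that switches off MAP kinases, ran from 18.7 to 164 CPM over the labelled libraries against 0 to 15.2 over the mCherry libraries (3.13 ± 1.35, edgeR adjusted p = 0.339). Sik1, a kinase that restrains CREB-driven transcription, had 0, 118 and 93.7 CPM in c-fos and 406, 111 and 67.0 in overlap libraries, against 7.59, 4.49 and 0 in mCherry libraries (4.54 ± 1.27, edgeR adjusted p = 0.166; DESeq2 adjusted p = 0.0283). Only c-fos 1 kept its libraries from separating. Leaving out mCherry 3 and overlap 1 brought the log2 fold change of Sik1 to 3.65. Btg2 (2.51 ± 1.24) and Trib1 (2.05 ± 1.15) had positive values with overlapping libraries, and Rgs2 was at 0.17 ± 0.59. Tiparp was the member with a negative value at an unadjusted p under 0.05 (-2.38 ± 1.12), which rested on 783 CPM in mCherry 3; without that library its log2 fold change was 0.56.

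Synaptic effectors are the later products of the program. Of 16 listed, 12 were tested, 9 with positive fold changes and a median of 1.31, and none had all labelled libraries above all mCherry libraries. Arc, which moves AMPA receptors out of the synapse, had 8.11, 143 and 147 CPM in c-fos and 329, 277 and 243 in overlap libraries, against 34.1, 71.8 and 31.6 in mCherry libraries (1.84 ± 0.79, edgeR adjusted p = 0.333). Apart from c-fos 1, every labelled library lay above every mCherry library. Plk2, a kinase that weakens overactive synapses, had 1.27 ± 0.57, and Scg2, a granule protein cut into secretoneurin, had 1.78 ± 0.83, both with overlapping libraries. Bdnf (1.76 ± 0.85), Homer1 (1.41 ± 0.68), Vgf (1.34 ± 0.70) and Nptx2 (0.98 ± 0.47) were positive in c-fos and in overlap cells, each at an unadjusted p between 0.0535 and 0.0749. Nptx1, a relative of Nptx2, was on the other side, at -1.12 ± 0.84.

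The CRE, the palindrome TGACGTCA to which CREB binds and through which calcium and cAMP reach many activity genes, was searched for in RefSeq promoter windows (250 bases before to 50 after the start, build GRCm38.p6). It stood in 588 of 32851 windows of all genes (1.79%). Of 66 genes on the 4 activity lists, 49 had at least 1 window, and 8 of their 73 windows held the site. The genes with the site were Scg2, Plk2, Pcsk1, Dusp1, Btg2, Errfi1, Ppp1r15a and Maff. Of these, Scg2, Plk2 and Dusp1 had an unadjusted edgeR p under 0.05, with the site 68, 62 and 143 bases before the start. Regardless of the site, 4 of 7, 4 of 8, 3 of 11 and 3 of 12 tested members of the 4 lists were higher at that p. Of all tested genes 4.71% were. Whether the site goes with a change was not tested. The 250 bases before the starts of Scg2, Plk2 and Dusp1 are shown. Capitals mark the CRE, and no other capital stands in them. Positions are chr1:79440027-79440276 on the minus strand for Scg2, chr13:110394794-110395043 on the plus strand for Plk2 and chr17:26508473-26508722 on the minus strand for Dusp1.
Scg2: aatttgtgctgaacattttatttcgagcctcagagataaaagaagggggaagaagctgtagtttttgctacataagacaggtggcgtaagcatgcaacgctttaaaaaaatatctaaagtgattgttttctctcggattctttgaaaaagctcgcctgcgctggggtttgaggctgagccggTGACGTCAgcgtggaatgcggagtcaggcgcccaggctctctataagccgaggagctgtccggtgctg
Plk2: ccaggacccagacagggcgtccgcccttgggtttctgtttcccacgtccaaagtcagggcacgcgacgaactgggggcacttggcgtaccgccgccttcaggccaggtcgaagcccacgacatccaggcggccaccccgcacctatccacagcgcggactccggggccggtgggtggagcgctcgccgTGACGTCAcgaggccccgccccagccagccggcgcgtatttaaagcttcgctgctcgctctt
Dusp1: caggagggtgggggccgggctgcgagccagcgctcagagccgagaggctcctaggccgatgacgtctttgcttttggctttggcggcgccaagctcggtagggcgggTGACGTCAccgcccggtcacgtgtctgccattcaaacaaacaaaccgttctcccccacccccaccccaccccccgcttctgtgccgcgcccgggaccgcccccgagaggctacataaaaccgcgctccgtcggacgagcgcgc
The windows of Fos, Jun, Junb, Atf3, Npas4, Nr4a3, Egr4 and Spry2 held none of these letters, nor the CArG box (in 1.63% of all windows, searched on both strands), the EGR site GCGTGGGCG on either strand (0.612%) or the AP-1 site, TGAGTCA or its complement TGACTCA (5.2%). A match is a run of letters in a window and nothing is drawn from its absence.

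Other higher genes were named by their p among those with separate libraries. The filter on low counts bears on these genes as it does on the activity lists. The 167 genes above mCherry in every labelled library had a median mean level of 61.4 CPM, close to the 60.2 CPM of all tested genes. None was among the 200 most abundant genes. Predicted genes or pseudogenes were 57 of the 167, against 1630 of all 7959 tested genes and 25 of the 260 genes below mCherry in every labelled library. Ccnt2, the cyclin of the elongation factor P-TEFb, had 97.3, 128 and 68.7 CPM in c-fos and 197, 19.2 and 81.1 in overlap libraries, against 0, 4.49 and 0 in mCherry libraries (5.23 ± 1.27, edgeR adjusted p = 0.126; DESeq2 adjusted p = 0.0161). With 2 counts over the mCherry libraries, its ratio of summed counts per TMM-scaled library size was 36.1 with a 95% counting interval of 9.79 to 302. Arpc3, a subunit of the actin-branching Arp2/3 complex, ran from 56.8 to 224 CPM over the labelled libraries against 7.91 to 34.1 over the mCherry libraries (2.85 ± 0.80, edgeR adjusted p = 0.166). Rps2, a protein of the small ribosomal subunit, ran from 46.9 to 186 CPM over the labelled libraries against 0 to 26.6 over the mCherry libraries (2.65 ± 0.89, edgeR adjusted p = 0.222). It was the 1 of 48 tested cytosolic ribosomal protein genes with separate libraries, where 2.10% of all tested genes lay above mCherry in that way. Of the 48, 28 were positive, with a median of 0.21. This summary depended on mCherry 3: leaving it out, 39 of 56 tested were positive, with a median of 0.69. With overlap 1 left out as well, 32 of 54 were positive, with a median of 0.35.

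Tnfsf13b, the B cell survival cytokine BAFF, and the olfactory receptor gene Olfr23 had 0 counts in all 3 mCherry libraries and at least 11.5 and 8.11 CPM in every labelled library. Against a floor of 3 counts summed over the mCherry group, Tnfsf13b was at least 15.5-fold and Olfr23 at least 17.7-fold higher in labelled libraries. Both entered the test through labelled libraries alone and were named for their separate libraries, so these floors describe them and support nothing further. Of the 167 genes above mCherry in every labelled library, 15 had 0 counts in all mCherry libraries, as had 82 of all 7959 tested genes. Ppl, Selenoo, Fam184b, Fbxo8, Rab37, Alms1 and Asb4 had every labelled library above every mCherry library with log2 fold changes of 4.00 to 4.99 and edgeR adjusted p-values of 0.159 to 0.180. Their mCherry levels did not exceed 11.4 CPM in any library. Overlap 1 was the highest labelled library for Fam184b, Fbxo8, Rab37 and Alms1, at 932 CPM for Fbxo8 against 12.5 to 69.2 in the other 5 labelled libraries; without overlap 1 and mCherry 3 the 7 genes had log2 fold changes of 2.83 to 3.94.

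Fibroblast growth factors signal through receptor tyrosine kinases to MAP kinase. Of 27 listed genes, 8 were tested, 6 with positive fold changes, and 3 had every labelled library above every mCherry library, where 2.10% of all tested genes did; the filter bears on these counts as it does on the activity lists. Fgf9, a secreted ligand that neurons make, had 105, 128 and 84.4 CPM in c-fos and 21.9, 127 and 219 in overlap libraries, against 15.2, 0 and 0 in mCherry libraries (4.34 ± 1.21, edgeR adjusted p = 0.166; DESeq2 adjusted p = 0.0220). Flrt3, a membrane protein that binds FGF receptors and latrophilins, ran from 68.7 to 154 CPM over the labelled libraries against 0 to 26.9 over the mCherry libraries (2.87 ± 0.98, edgeR adjusted p = 0.227; DESeq2 adjusted p = 0.0477). The third was Spry2, given above. Fgf18, another ligand, had 1.86 ± 0.84, while the receptors Fgfr1 and Fgfr2 had -0.32 ± 0.83 and -0.34 ± 1.24. The negative signs of both receptors rested on mCherry 3. Their log2 fold changes were 0.08 and 1.05 without it, and 0.33 and 1.32 without mCherry 3 and overlap 1. Fgf2 was below the filter and differed between the labelled groups in kind: it had 40.5, 18.7 and 68.7 CPM in c-fos libraries and 0 counts in all overlap and all mCherry libraries. It shares sequence with Nudt6, Fgf2os and other genes in the annotation, and the reads cannot be assigned between them.

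The lower genes reached higher levels. The 260 genes below mCherry in every labelled library had a median mean level of 133 CPM, and 47 of them were among the 200 most abundant genes. Of those 200 genes, 185 had negative and 15 positive fold changes, with a median of -0.55. Each library's own 200 most abundant genes, which can differ between libraries, were also summed. Their share of all counts was 20.6 ± 3.22% in labelled libraries and 25.6 ± 2.19% in mCherry libraries (SD, exact permutation p = 0.0476). Scaling the libraries on the 200 genes of highest mean level, in place of TMM, moved the median of all genes up by 0.528 on the log2 scale. It turned the split of separate genes to 337 above and 56 below, against 167 and 260. The number of genes on each side thus depends on the scaling, while none of the genes named by rule changed sign under any of the 3 other scalings tried. Of 24 named genes with every labelled library above every mCherry library, 22 kept that order under all 3 (the exceptions were Egr4 with DESeq2 size factors and Jun with upper quartile scaling). Of 31 named genes below, 12 kept it, among them Frrs1l, Nptxr, Syt1, Cplx2, Tanc2, Zmat2, Ppp3cb, Atp2b3, Neurod6 and Fbxw28, so separate libraries of the other lower genes hold on the TMM scale and not on every other. Below, shares of separate lower genes are to be read against 3.27% of all tested genes and 23.5% of the 200 most abundant.

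**Figure D2:**
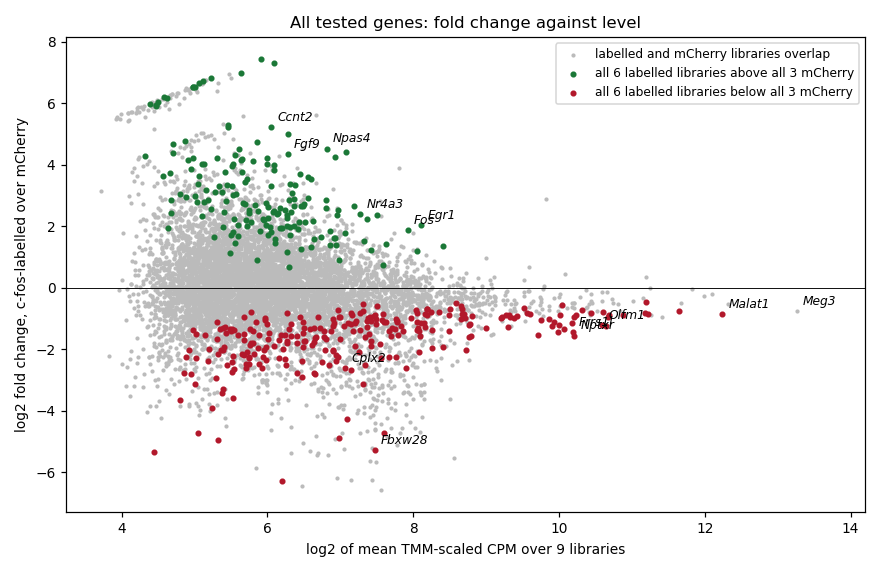
Log2 fold change of the 6 labelled over the 3 mCherry libraries for 7959 tested genes against log2 of the mean TMM-scaled CPM. The 167 genes above mCherry in every labelled library (green) lie at low and middle levels and the 260 below it (red) reach the most abundant transcripts; grey points overlap between groups.

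Nuclear long noncoding RNAs made up 2 of the 4 genes at the smallest adjusted p. Malat1, which sits in nuclear speckles, had 4321, 4947 and 5684 CPM in c-fos and 2895, 2932 and 2455 in overlap libraries, against 7789, 6135 and 6369 in mCherry libraries. On the TMM scale the 3 groups did not overlap, with overlap lowest (-0.87 ± 0.14, edgeR adjusted p = 0.0886; limma-voom adjusted p = 6.25e-05). With upper quartile scaling or the scale of the 200 most abundant genes, labelled and mCherry libraries of Malat1 overlapped. Meg3, a maternally expressed transcript and the most abundant of the named genes, had 10004, 10523 and 11340 CPM in c-fos and 6711, 5399 and 5096 in overlap libraries, against 16598, 11603 and 11179 in mCherry libraries (-0.75 ± 0.13, edgeR adjusted p = 0.0886). Its c-fos 3 library lay just above mCherry 3. Snhg11 (-1.14 ± 0.31) was also below mCherry in every labelled library on the TMM scale but not on those 2 scales, whereas Snhg14 (0.22 ± 0.53), Peg13 (-0.44 ± 0.67) and Rian (-0.72 ± 0.75) overlapped, and 6 of the 9 tested members of the list were negative. Without mCherry 3 the log2 fold change was 0.03 for Snhg14, -0.17 for Peg13 and 0.23 for Rian.

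AMPA receptors carry fast glutamate transmission; of 26 listed genes of the receptor and its partners, 18 were tested, 12 with negative and 6 with positive fold changes, and 4 had every labelled library below every mCherry library (Frrs1l, Nptxr, Olfm1 and Gria1). The median was -0.75. With the scale on the 200 most abundant genes it was -0.20, and 2 genes, Frrs1l and Nptxr, stayed separate. The share of separate genes was near that among the 200 most abundant genes. Frrs1l, an endoplasmic reticulum protein needed to assemble the receptor, had 673, 937 and 1047 CPM in c-fos and 483, 695 and 660 in overlap libraries, against 1927, 1716 and 2365 in mCherry libraries (-1.44 ± 0.25, edgeR adjusted p = 0.0886; DESeq2 adjusted p = 0.0375; limma-voom adjusted p = 0.000938). Every labelled library was well below the lowest mCherry library.

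Nptxr, the membrane-bound neuronal pentraxin that gathers AMPA receptors at synapses, had 754, 828 and 831 CPM in c-fos and 724, 868 and 339 in overlap libraries, against 1965, 2245 and 2112 in mCherry libraries (-1.55 ± 0.28, edgeR adjusted p = 0.0886; DESeq2 adjusted p = 0.0486; limma-voom adjusted p = 6.25e-05). It overlaps the gene Npcd on the same strand, so reads cannot be split between them. Olfm1, a secreted olfactomedin found with AMPA receptors, had 892, 1149 and 1247 CPM in c-fos and 768, 1191 and 1164 in overlap libraries, against 2197, 2214 and 3070 in mCherry libraries (-1.22 ± 0.23, edgeR adjusted p = 0.1001). Gria1, a pore subunit, ran from 54.8 to 244 CPM over the labelled libraries against 251 to 356 over the mCherry libraries (-1.10 ± 0.53). The most abundant subunit gene, Gria2, had 2262, 2413 and 2703 CPM in c-fos and 1075, 1798 and 1446 in overlap libraries, against 4518, 3248 and 2611 in mCherry libraries (-0.88 ± 0.21, edgeR adjusted p = 0.127), so that c-fos 3 and mCherry 3 overlapped.

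**Figure D3:**
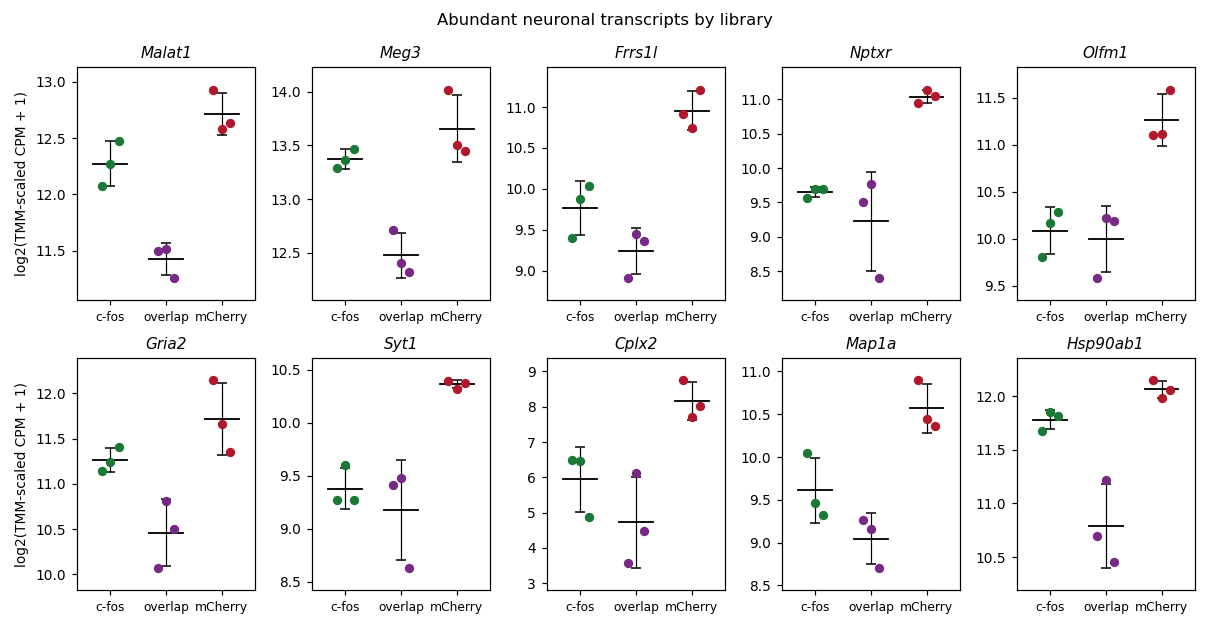
Levels of 10 abundant transcripts by library, as log2(TMM-scaled CPM + 1), in c-fos, overlap and mCherry libraries (points, 3 each; bar, mean; whiskers, SD; axes do not start at 0). Labelled points sit below all mCherry points for Malat1, Frrs1l, Nptxr, Olfm1, Syt1, Cplx2, Map1a and Hsp90ab1; Meg3 and Gria2 touch at 1 c-fos library.

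Other receptor genes showed no separate libraries except Grik5. All 10 tested GABA receptor genes had negative fold changes, with a median of -0.68 that became -0.21, with 3 positive, on the scale of the 200 most abundant genes; none had an unadjusted p under 0.05 or separate libraries. Among 11 tested NMDA, kainate and metabotropic glutamate receptor genes the median was -0.22, and 0.33 on that other scale. Grin1, the obligatory NMDA subunit, had -0.93 ± 0.44, and Grik5, a kainate subunit, had -1.89 ± 0.81 with every labelled library, up to 132 CPM, below every mCherry library, from 168 CPM up.

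Synaptic vesicle release depends on SNARE proteins and their regulators. Of 38 listed, 33 were tested, 23 with negative fold changes, and 7 had every labelled library below every mCherry library; the share was near that among the 200 most abundant genes. On the scale of those 200 genes the median of -0.54 was 0.05 and 2 members, Syt1 and Cplx2, stayed separate. Syt1, the calcium sensor of fast release, had 616, 775 and 616 CPM in c-fos and 680, 715 and 395 in overlap libraries, against 1343, 1278 and 1329 in mCherry libraries (-1.06 ± 0.28, edgeR adjusted p = 0.159; limma-voom adjusted p = 0.0120). Cplx2, a clamp of the fusion machinery, had 89.2, 87.2 and 28.1 CPM in c-fos and 11.0, 69.2 and 21.2 in overlap libraries, against 429, 209 and 261 in mCherry libraries (-2.60 ± 0.66, edgeR adjusted p = 0.144; DESeq2 adjusted p = 0.0383; limma-voom adjusted p = 0.0474). Its labelled levels were all under 90 CPM. Vamp2 (-1.29 ± 0.48), the vesicle SNARE, Rab3c (-1.34 ± 0.52) and Syn1 (-0.85 ± 0.51) also had separate libraries. Snap25, the plasma membrane SNARE, showed 0.28 ± 0.45, and Rab3a 0.07 ± 0.38, with overlapping libraries.

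At the postsynaptic side, 12 of 20 tested density genes were negative with a median of -0.27, and 0.21 on the other scale. Dlg4, the scaffold PSD-95, ran from 493 to 1507 CPM over the labelled libraries against 1593 to 1891 over the mCherry libraries (-0.72 ± 0.28, edgeR adjusted p = 0.278). Nrgn, which binds calmodulin in spines, ran from 186 to 623 CPM over the labelled libraries against 720 to 1038 over the mCherry libraries (-0.99 ± 0.35, edgeR adjusted p = 0.234). Cnksr2 (-1.87 ± 0.68) separated too. Tanc2 (-1.42 ± 0.33), a postsynaptic scaffold, also had every labelled library below every mCherry library.

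Microtubule and neurofilament genes shape axons and dendrites. Of their 22 tested members, 8 had a negative value at an unadjusted p under 0.05, where 8.32% of all tested genes and 77 of the 200 most abundant genes did. There were 19 negative members, and 4 had separate libraries (Map1a, Map1b, Mapt and Tubb5). On the scale of the 200 most abundant genes 12 were negative, 2 had an unadjusted p under 0.05, 0 had separate libraries and the median of -0.68 was -0.14. Map1a, a dendritic microtubule protein, ran from 416 to 1054 CPM over the labelled libraries against 1313 to 1904 over the mCherry libraries (-1.24 ± 0.28, edgeR adjusted p = 0.123; limma-voom adjusted p = 0.00209). Map1b had -0.82 ± 0.19 (edgeR adjusted p = 0.123) and Mapt, the tau gene, -0.94 ± 0.29 (edgeR adjusted p = 0.194). Tubb5, at -2.09 ± 0.58, had 1155 CPM in mCherry 3 against 205 and 294 in the other 2 mCherry libraries, and was -0.99 without mCherry 3.

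Ion pumps, chaperones and oxidative phosphorylation serve the upkeep of all neurons. Of 11 tested sodium-potassium and calcium pump genes, 10 were negative, and Atp2b1 (-0.79 ± 0.22) and Atp2b3 (-1.39 ± 0.58), plasma membrane calcium pumps, had separate libraries. Hsp90ab1, the constitutive HSP90, had 3275, 3692 and 3603 CPM in c-fos and 1656, 2386 and 1404 in overlap libraries, against 4537, 4055 and 4256 in mCherry libraries (-0.76 ± 0.18, edgeR adjusted p = 0.123; limma-voom adjusted p = 0.00209). Its log2 fold change was -0.28 in c-fos and -1.24 in overlap cells. Of 34 tested nuclear genes of oxidative phosphorylation 25 were negative, with a median of -0.53 and -0.03 on the other scale. Libraries separated for 3 of them, among them Ndufb9 (-2.02 ± 0.65), of complex I, and for 0 on the other scale. Calcineurin's catalytic subunit gene Ppp3cb (-1.51 ± 0.55) separated as well. The RNA-binding factors Celf4 (-1.23 ± 0.25), Srek1 (-2.03 ± 0.45) and Zmat2 (-1.35 ± 0.29) and the ubiquitin ligase gene Ttc3 (-0.85 ± 0.20) were below mCherry in every labelled library, each at an edgeR adjusted p of 0.123.

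**Figure D4:**
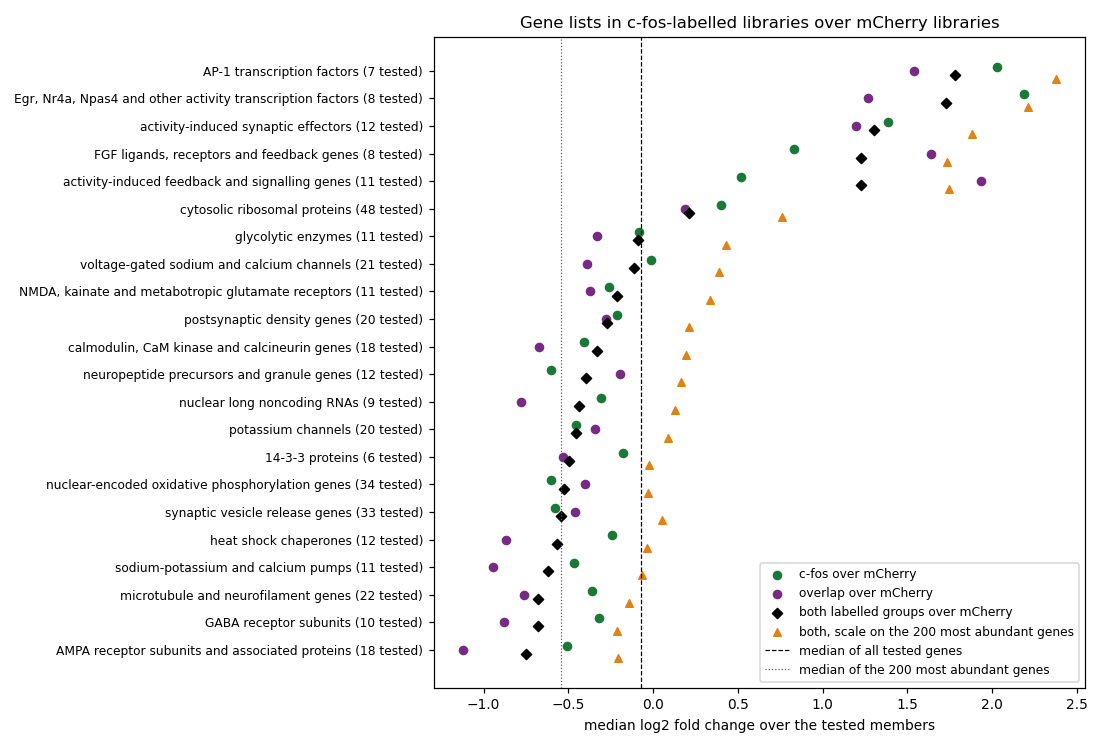
Median log2 fold change over the tested members of 22 gene lists, for c-fos over mCherry (green), overlap over mCherry (purple), both over mCherry (black) and both with libraries scaled on the 200 most abundant genes (orange). The 4 activity lists and the FGF list stand at 1.23 to 1.78 on the main scale, and most neuronal lists lie between the medians of all tested genes (-0.07) and of the 200 most abundant genes (-0.55), or somewhat below.

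The medians of the neuronal lists ran from -0.75 for AMPA receptor genes to -0.09 for glycolytic enzymes, on both sides of the -0.55 of the 200 most abundant genes, so nothing particular to these lists is read from them. Voltage-gated sodium and calcium channels had a median of -0.11, potassium channels -0.45, calmodulin and its targets -0.33, heat shock chaperones -0.57, 14-3-3 proteins -0.49, glycolytic enzymes -0.09 and neuropeptide genes -0.40. On the scale of those 200 genes the signs of these medians were positive for sodium and calcium channels (0.39), potassium channels (0.09), calmodulin genes (0.20), glycolytic enzymes (0.43) and neuropeptide genes (0.16). The median of all tested genes was 0.45 on that scale, and those of the 4 activity lists were 1.74 to 2.38. Without mCherry 3 and overlap 1 the activity lists had medians of 1.04 to 1.85, where all tested genes had -0.04.

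A further set of lower genes rested on 1 library. Of the 662 genes with lower values at an unadjusted p under 0.05, 271 (40.9%) had over 80% of their summed mCherry CPM in mCherry 3, a limit set after values had been seen. Of the 260 genes with separate libraries only 5 did (1.92%). Fbxw28, an F-box gene, had 0 to 28.2 CPM over the labelled libraries against 56.9, 51.6 and 1424 in mCherry libraries (-5.26 ± 1.02, edgeR adjusted p = 0.1001), and -2.18 without mCherry 3. Cacnb2, a calcium channel subunit gene, had 965 CPM in mCherry 3 against 53.1 and 47.1 in the other 2 mCherry libraries and up to 52.9 in labelled ones (-5.22 ± 1.00, and -2.49 without mCherry 3). Rps15a was at 973 CPM in mCherry 3 and at no more than 65.4 in any other library (-6.17 ± 1.45, and -1.54 without it).

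The potassium channel genes Kcnk2 and Kcnd3 changed sign when mCherry 3 was left out. Kcnk2 had 73.0, 80.9 and 49.997 CPM in c-fos and 132, 165 and 49.4 in overlap libraries, against 19.0, 20.2 and 1400 in mCherry libraries, so its log2 fold change of -2.42 ± 0.96 became 2.11. Kcnd3 was at -2.45 ± 0.90 with mCherry 3 and 0.35 without it. Ldha, lactate dehydrogenase (-2.89 ± 1.06, and -0.30 without mCherry 3), and Nlgn1, a postsynaptic adhesion gene (-1.95 ± 0.63, and -0.23), lay nearer to 0 without it. Maml3, a Notch coactivator, had 1234 CPM in mCherry 3 and at most 140 in any other library (-2.74 ± 0.79, and -0.60). Of 29 listed Notch pathway genes 4 could be tested, and Notch2, below the filter, had 0 to 11.0 CPM over the labelled libraries against 91.1, 0 and 261 in mCherry libraries.

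**Figure D5:**
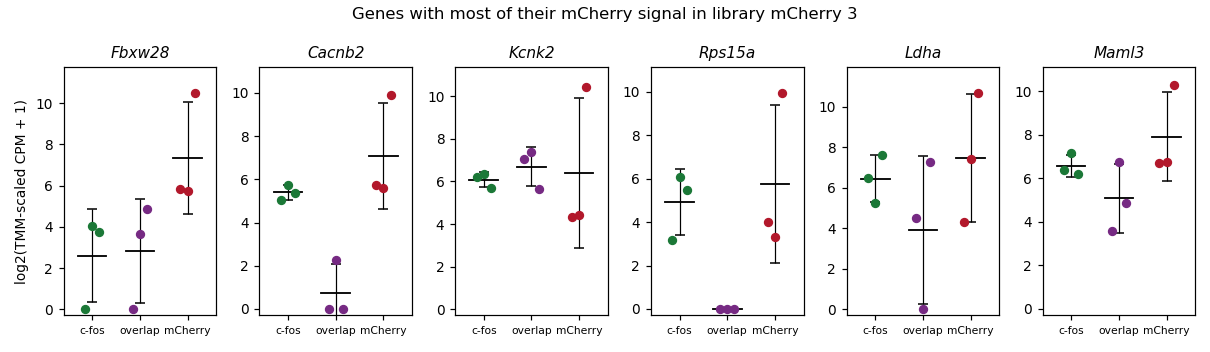
Levels of 6 lower genes by library, as log2(TMM-scaled CPM + 1), in c-fos, overlap and mCherry libraries (points, 3 each; bar, mean; whiskers, SD). In each panel mCherry 3 lies far above the other 2 mCherry libraries; for Fbxw28 those 2 also lie above all labelled libraries, while for Kcnk2 they lie below them.

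Markers of cell types gave no pass at the adjusted threshold either. Summed over 9 genes, markers of neurons in general ran from 2222 to 3088 CPM in the labelled libraries and from 3311 to 3734 CPM in the mCherry libraries. As CPM of the plain total these ranges overlapped, at 2226 to 3320 in labelled and 2373 to 3573 in mCherry libraries. Glutamatergic markers ran from 462 to 1469 CPM over labelled and from 1044 to 1527 CPM over mCherry libraries. Of 6 tested, 3 were positive and 3 negative, with a median of -0.19. The 1 with an unadjusted p under 0.05 was Neurod6, a factor of excitatory forebrain neurons, at 32.9 to 125 CPM over labelled against 300 to 377 CPM over mCherry libraries (-1.88 ± 0.56, edgeR adjusted p = 0.180). GABAergic markers ran from 146 to 486 CPM over labelled and from 125 to 200 CPM over mCherry libraries, with Gad1 at no more than 106 CPM and Gad2 at no more than 68.5 CPM in any library and Dlx5, Npy and Vip at 0 in all 9.

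Markers of striatal and central amygdala projection neurons ran from 1086 to 1881 CPM in the labelled libraries and from 451 to 1036 CPM in the mCherry libraries, without overlap. Foxp1 (0.63 ± 0.47), Foxp2 (1.08 ± 0.71) and Meis2 (0.99 ± 0.90) were among its tested members, and 6 of the 9 tested were positive and 3 negative. Without mCherry 3 and overlap 1, 6 of 10 tested were positive and 4 negative. Foxp1, Foxp2 and Meis2 then stood at 0.54, 0.96 and -0.06, and Prkcd, Isl1 and Pde10a at -0.40, -1.29 and -0.87. Markers of basolateral amygdala subregions ran from 681 to 1622 CPM over labelled and from 1062 to 2492 CPM over mCherry libraries, with mCherry 3 highest. Of 8 tested members 7 were negative, with a median of -0.69, and Fezf2 was positive (3.50 ± 1.59). With mCherry 3 and overlap 1 left out, 7 of 10 tested were negative and 3 positive, with a median of -0.24. Fezf2 then stood at 2.67. Whether the makeup of the captured cells has a part in the values above was not tested.

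Glial and vascular sums overlapped between the groups. Astrocyte markers ran from 910 to 1697 CPM in labelled and from 1172 to 2057 CPM in mCherry libraries, oligodendrocyte markers from 2489 to 4592 and from 3252 to 5956, microglia markers from 150 to 559 and from 139 to 330, and endothelial and mural markers from 478 to 1019 and from 467 to 637. Of 9 tested astrocyte genes, 4 were positive and 5 negative with a median of -0.03. Clu, the 1 with an unadjusted p under 0.05, was at -3.08 ± 0.84, and at -1.57 without mCherry 3, where it had 720 CPM. On the other side were Csf1r, the receptor that microglia depend on (3.47 ± 1.24, and 2.37 without mCherry 3 and overlap 1, where it had 373 CPM in overlap 1), and Col1a2, a collagen gene of the mural list (2.70 ± 1.23), both with overlapping libraries. Of 3 tested microglia genes, 2 were positive and 1 negative, with a median of 0.22 (1.09 in c-fos and -0.64 in overlap cells). Among 8 tested endothelial and mural genes, 7 were positive and 1 negative, with a median of 0.54. Ttr of the choroid plexus had 1337 CPM in mCherry 3 and at most 25.0 elsewhere.

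The last comparison asked whether the labelled groups differ in their distance from mCherry. Between overlap and c-fos libraries 0 of 7959 genes passed the adjusted threshold in edgeR, and 407 (5.11%) had an unadjusted p under 0.05. DESeq2 called 6 genes and limma-voom 3. Against mCherry alone, c-fos libraries had 0 called genes and overlap libraries had 2 (0.0251%), Malat1 and Meg3, both at an edgeR adjusted p of 0.00636. The gap was within the labelled cells too: the log2 difference of overlap to c-fos was -0.85 ± 0.17 for Malat1 and -0.89 ± 0.16 for Meg3, with edgeR adjusted p-values of 0.418 and 0.166.

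Side by side, and with the mCherry libraries shared, the log2 fold changes were -1.24 in overlap and -0.28 in c-fos for Hsp90ab1, -1.32 and -0.38 for Ttc3, -1.26 and -0.49 for Gria2, and -2.19 and -0.49 for the kinase-like gene Camkv. Activity genes stood at 4.76 in overlap and 4.29 in c-fos for Npas4, 2.23 and 2.59 for Nr4a3, 2.01 and 1.75 for Fos, and 1.57 and 2.52 for Egr1. Arc, at 2.58 in overlap and 1.11 in c-fos, was the activity gene with the widest gap among those named with an unadjusted p under 0.05 apart from Dusp1, at 3.98 and 2.27. No gene's difference between overlap and c-fos libraries passed the adjusted threshold in the main edgeR fit, while DESeq2 called 6 genes and limma-voom 3.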

How the data were processed

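Unnormalized read counts per gene were deposited by the authors, made from Smart-3SEQ reads of laser-captured cells; the submitters' processing notes name Trim Galore, STAR, UMI-tools, featureCounts and the mm9 build, with no versions. The sources used here do not say whether reads were collapsed by molecular identifier or counted by strand, so overlapping genes cannot be told apart. Of 54838 rows, 115 carry no gene symbol (0.222% of 2199270 counts). They were kept under their gene identifiers in library sizes and in the filter and tests. Libraries were grouped by title. Intervals and floors cover counting error only.

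Computed here: edgeR 4.0.16 (R 4.3.3) with TMM scaling, filterByExpr at a minimum count of 10 over the 3 groups, a quasi-likelihood fit of all 9 libraries, the contrast of the mean of c-fos and overlap against mCherry, and Benjamini-Hochberg adjustment over 7959 genes at 0.05. A log2 fold change carries the SE implied by its F statistic. CPM are counts scaled to a common total by the TMM-scaled library size unless stated to be of the plain total. DESeq2 1.42.0, limma 3.58.1 (voom), other scalings, filters, a replicate block, left-out libraries and thinned counts were alternatives. The script was tested on simulated data.

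Gene types and overlaps come from the GENCODE vM21 annotation and promoters from RefSeq (GRCm38.p6), another build than the counts, used for names and sequence only. Genes are named by rule as Fos, Fgf2 and Notch2, then per direction the 15 with the smallest edgeR p among those with the same sign in both labelled groups and no overlap with mCherry libraries (no predicted genes, pseudogenes or clone names), then up to 4 per list at an unadjusted p under 0.05. Other list members were named after their values were seen. Members and lists were chosen with earlier results of these data known. Some genes are not reported here.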

Additional observations from a re-analysis of the deposited data

Results flagged for a closer look

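Among the 6 labelled libraries, 86 named genes were checked on the log2(CPM + 1) scale for a highest or lowest library whose gap to the next, as a share of the whole range, passed Dixon's 95% limit, and 8 had one; chance alone gives about 1 in 20. Gaps on the plain CPM scale, such as that of Fbxo8 in overlap 1 (932 CPM, against up to 69.2 CPM in the other 5), were not used for this. In the overlap group, overlap 1 had 318 CPM of Alms1, where the remaining 5 labelled libraries had 40.5 to 88.2 CPM, Tubb5 had 32.9 CPM in overlap 1, against 108 to 190 CPM, and Nptxr had 339 CPM in overlap 3, against 724 to 868 CPM. Overlap 3 also had 395 CPM of Syt1, where the remaining 5 had 616 to 775 CPM. In c-fos 1, a library with a floor of 27.5 CPM of its total, Sik1 had 0 CPM against 67.0 to 406 CPM in the other 5 labelled libraries, Arc had 8.11 CPM against 143 to 329 CPM, Grik5 had 0 CPM against 23.1 to 132 CPM, and Grin1 had 73.0 CPM against 296 to 681 CPM. The part of depth in these values was not tested.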

How the results depend on the processing

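No gene named by rule changed its direction under other scalings, filters or a 2-level fit, and edgeR called 0 genes under each of the 3 other scalings, the stricter filter, the 2-level fit and thinning. Counts of called genes, all labelled against mCherry, were 83 with DESeq2 (60 higher, 23 lower), 38 with limma-voom (38 lower), 503 with no filter on low counts (18 higher, 485 lower) and 7 (7 lower) with the replicate block. Genes with an unadjusted p under 0.05 in both labelled groups numbered 246 with limma-voom, 986 with no filter, 180 with a stricter filter, 220 with the block and 99 after thinning to the smallest total, an alternative chosen after seeing the data. Genes with separate libraries numbered 734 with no filter, 281 with the stricter filter, 167 after thinning and 1298 without mCherry 3 and overlap 1, where fewer libraries separate more easily. Genes that differed between overlap and c-fos libraries numbered 6 with DESeq2, 3 with limma-voom, 41 with no filter, 3 with the block and 1 without mCherry 3 and overlap 1. Leaving out 1 library at a time gave 0 to 181 called genes (0 to 9 higher, 0 to 172 lower), 230 to 685 in both groups, 617 to 1011 with separate libraries and 0 to 9 between overlap and c-fos libraries. Genes detected at equal depth were 797 more in labelled than in mCherry libraries, with a range of -97.8 (without mCherry 3) to 1379. The log2 fold change of Tiparp ran from -4.13 to 0.56 with 1 library left out and was 0.74 without mCherry 3 and overlap 1. For Kcnd3 the range was -2.97 to 0.35, and 0.21 without both. For Kcnk2 it was -2.97 to 2.11, with 2.05 without both and 0.91 with limma-voom. The positive values of these 3 genes came without mCherry 3, which held most of their mCherry counts; for limma-voom the cause was not tested. Replicate numbers did not pair the libraries: over 9 same-numbered pairs the correlations of deviations ran from -0.028 to 0.038 and 3 of 9 libraries correlated best with their own number. Depth limits the low genes most, since 3 counts are up to 33.3 CPM of a library's total.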
